A study of Mus musculus with 24 samples.

Results

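Neurotrophins are secreted growth factors that act through Trk receptor tyrosine kinases, through the p75 neurotrophin receptor and through sortilin, and 6 genes of this system were followed across 24 mammary tumors: the ligands Ntf3 and Bdnf and the receptors Ntrk2, Ntrk3, Ngfr and Sort1. They were taken by gene name from the array's non-control probes, which gave 13 of 39429 probes and 6 of 30119 genes. Ntf3, Bdnf and Ngfr each had 1 probe, Ntrk2 and Sort1 had 3 each, and Ntrk3 had 4. All 13 probes passed the filter on low signal that left 27211 probes and 20893 genes for testing.

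Neurotrophin-3, the product of Ntf3, signals mainly through TrkC, the product of Ntrk3, whereas brain-derived neurotrophic factor, the product of Bdnf, signals through TrkB, the product of Ntrk2. Both Trk genes also make truncated receptors that bind the ligand but lack the kinase. The p75 receptor, encoded by Ngfr, binds all mature neurotrophins with low affinity, and with sortilin it forms a receptor for their uncleaved precursors. In the mammary gland p75 is known as a marker of myoepithelial cells.

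All tumors came from female BALB/c mice given the carcinogen 7,12-dimethylbenz[a]anthracene (DMBA), so every group shared that treatment, and no untreated gland was among the arrays. Mice ate a low-fat diet (LFD) or a high-fat diet (HFD) throughout, or were switched after peripuberty from high to low fat (HFD-LFD) or from low to high fat (LFD-HFD). The labels also call each tumor early or late in onset, which gave 3 early HFD, 3 early HFD-LFD, 6 late HFD, 3 late HFD-LFD, 4 late LFD-HFD and 5 late LFD tumors. Age, latency and histology of single tumors were not in the labels, nor was the mouse each tumor came from, so the p-values measure the spread between these tumors. No LFD or LFD-HFD tumor was labeled early, so onset could be compared within the HFD and HFD-LFD diets alone.

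Each tumor RNA was hybridized beside the same reference, a pool of RNA from 11 mouse cell lines, and the values below are log2 ratios of tumor to reference, in which 0 means the level of that pool. A ratio does not allow one gene's level to be set against another's. The labels put the tumor in Cy5, whereas the study's methods text names the dyes the other way. The labels were followed because Cy5 varied more between arrays (median SD 0.49 on the log2 scale, against 0.19 for Cy3, over 19663 probes) and because the 2 Y chromosome probes, in female tumors, lay below 0 on every array. The 24 arrays sat on 7 slides read in 3 scan sessions: 3 early and 8 late tumors in session 1, 3 and 3 in session 2, and 7 late tumors in session 3. On each array 65.3 to 89.1% of probes were well above background, and on 7 arrays rows of spots with dimmed Cy5, 8.79 to 16.9% of the spots, were set missing. Luminal keratins were detected in the tumors, with Krt8 well above background on 24 and Krt18 on 21 of 24 arrays.

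The probes of the Trk genes separate receptor forms, and 3 of their sequences are shown because they show which form a probe measures. They are the sequences of the scanner files, 5′ to 3′. The Ntrk2 sequence lies in the stretch shared by the full-length and truncated receptors. In the Ntrk3 kinase sequence the capitals mark the codons of the DFG motif found in protein kinases, and in the Ntrk3 truncated sequence they mark the stop codon that ends this form.

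Ntrk2, both forms: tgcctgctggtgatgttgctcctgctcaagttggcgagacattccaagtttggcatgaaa

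Ntrk3, kinase form: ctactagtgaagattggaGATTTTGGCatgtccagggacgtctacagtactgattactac

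Ntrk3, truncated form: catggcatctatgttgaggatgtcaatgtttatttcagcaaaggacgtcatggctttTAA

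Positions are those of the files, on mm9. The Ntrk2 probes lay at chr13:58979563-58979622 (both forms), chr13:59038046-59038105 (truncated) and chr13:59230936-59230995 (kinase), on the plus strand. The Ntrk3 probes lay on the minus strand at chr7:85337455-85337514 and chr7:85392044-85392103 (kinase) and at chr7:85445908-85445967 and chr7:85447515-85447574 (truncated). The Ntf3 probe was at chr6:126051431-126051490 on the minus strand, the Bdnf probe at chr2:109566961-109567020 on the plus strand and the Ngfr probe at chr11:95430211-95430270 on the minus strand. The Sort1 probes were at chr3:108164349-108164408, chr3:108158404-108158463 and chr3:108157150-108159198, the last of which spans more genome than its 60 bases and so joins separate exons. All were designed to transcripts, and whether each lies in coding or untranslated exon was not analysed here. For genes with several probes, the probe of highest mean intensity stood for the gene: for Ntrk2 the probe of both forms, for Ntrk3 the truncated probe at chr7:85445908-85445967, and for Sort1 the probe at chr3:108164349-108164408.

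Early tumors differed from late tumors in 3 of the 6 genes. Ntf3 was 6.55-fold higher in early tumors, and the receptor genes Ntrk2 and Ntrk3, each by its brightest probe, were 3.42-fold and 5.56-fold lower. The Ntrk2 probes of the kinase form and of the truncated form did not pass. Neither receptor gene passed within HFD tumors or within HFD-LFD tumors. Bdnf, Ngfr and Sort1 did not pass the test. Over all 20893 genes, 16.4% passed the same test (limma, adjusted p under 0.05), 6.17% as higher and 10.2% as lower in early tumors, and 32.7% had an unadjusted p under 0.05, as did the same 3 of the 6.

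**Figure D1:**
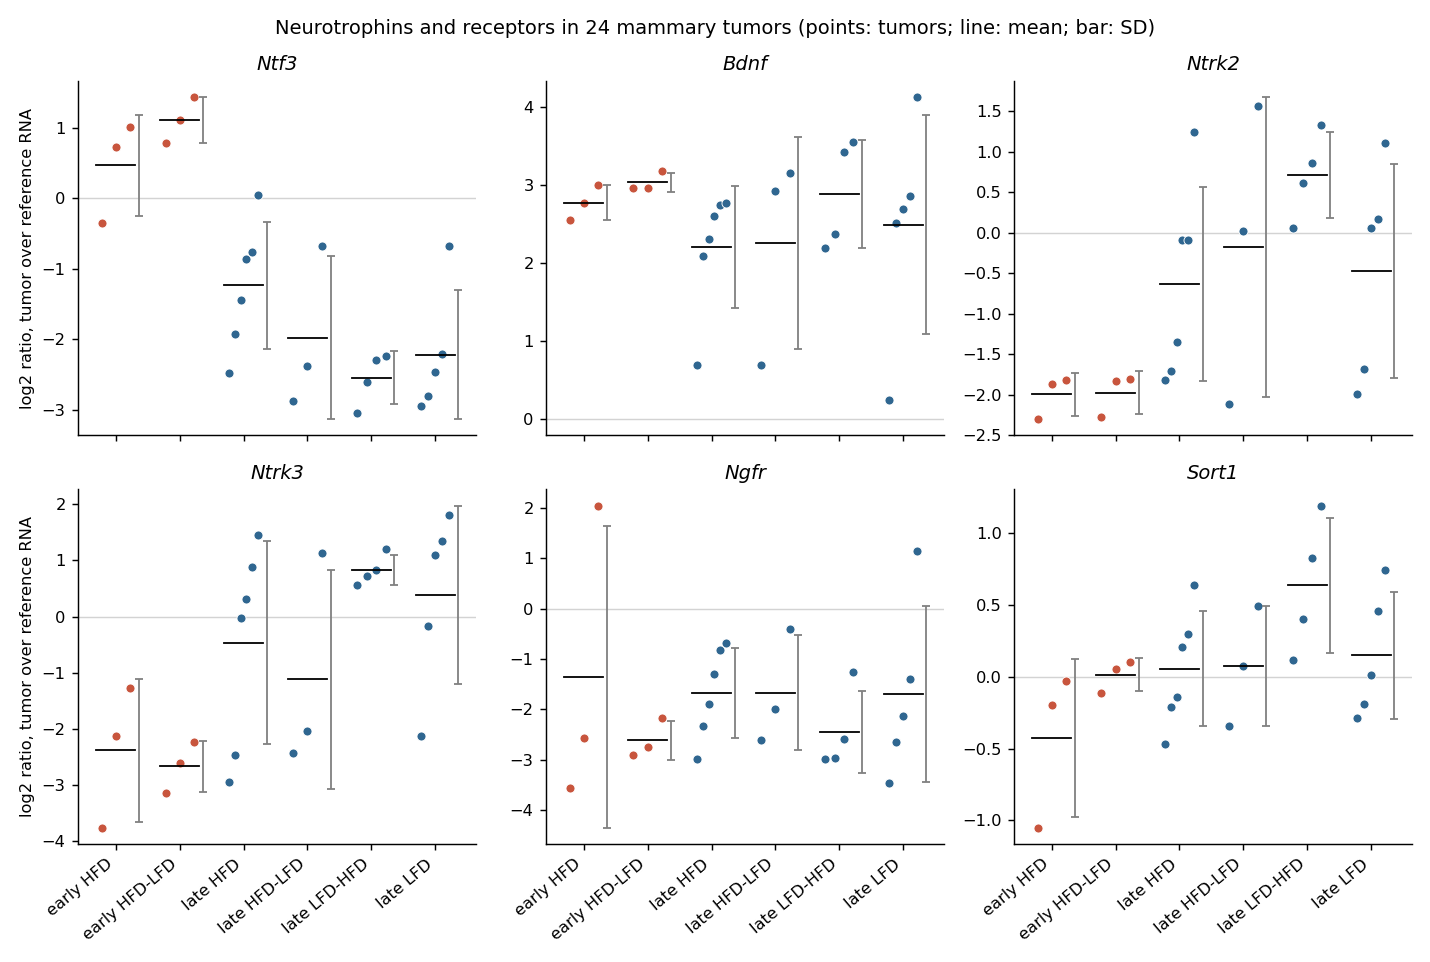
Log2 ratio of tumor to reference RNA (y axis) for each of the 6 genes in the 6 diet and onset groups (x axis), 1 point for each of the 24 tumors, with the mean and SD of each group. Ntf3 is high in both early groups, Ntrk2 and Ntrk3 are low in both, and late tumors spread widely in Ntrk2 and Ntrk3 in every diet but LFD-HFD.

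Ntf3 was above the reference in 5 of the 6 early tumors. The early HFD tumors 1 to 3 read 0.72, 1.02 and −0.35, and the early HFD-LFD tumors 1 to 3 read 1.43, 0.79 and 1.11. Late tumors were almost all below the reference. The 6 late HFD tumors ran from −2.48 through a median of −1.15 to 0.05, the 3 late HFD-LFD tumors read −2.38, −2.88 and −0.67, the 4 late LFD-HFD tumors −3.05, −2.30, −2.24 and −2.60, and the 5 late LFD tumors −2.47, −2.81, −2.94, −0.67 and −2.21. A single late tumor, late HFD 4, lay above the lowest early one, and no late tumor reached the median of the early ones.

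The early mean of Ntf3 was 0.79 ± 0.61 (SD, n = 6) and the late mean −1.93 ± 0.95 (n = 18), a difference of 2.71 with a standard error of 0.40 (limma, adjusted p = 0.000225). An exact two-sided permutation of the onset labels over 134596 splits gave p = 1.49e-05 (adjusted over 12 such tests, 0.000178). For every gene, that test moved labels freely across slides and diets, although early tumors sat on slides 2 and 4 alone. Its p-values therefore take no account of slide or diet. Among all genes tested the difference ranked 55 from the highest. The study had picked Ntf3 through its own PCR work on tumors of this model, so its direction here is not independent evidence. In bulk tissue, fewer cells of a type and less RNA per cell cannot be told apart, for this gene or the others.

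The group means of Ntf3 ran, from high to low, early HFD-LFD 1.11 ± 0.32 (n = 3), early HFD 0.46 ± 0.72 (n = 3), late HFD −1.24 ± 0.90 (n = 6), late HFD-LFD −1.98 ± 1.16 (n = 3), late LFD −2.22 ± 0.91 (n = 5) and late LFD-HFD −2.55 ± 0.37 (n = 4). The early means differed by less than the larger of their SDs, as did each late mean and the next late one. The step between early HFD and late HFD was the sole step between neighbors that exceeded both SDs.

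The Ntf3 difference was 2.36 within scan session 1 (limma, adjusted p = 0.0412) and 3.61 within session 2 (adjusted p = 0.00269). The early tumors of session 1 were HFD, set against 4 late HFD and 4 late LFD tumors. Those of session 2 were HFD-LFD, set against 2 late HFD-LFD and 1 late LFD-HFD tumors. For every gene, the values within sessions therefore mix diet with onset in part. With the slide as a random block the Ntf3 difference was 2.85 (limma, adjusted p = 0.00358). With the slide as a fixed block it was 3.35 and was not called. That fit leaves 1 slide with both onsets, which held 3 early HFD-LFD tumors and 1 late tumor, of the LFD-HFD diet. The Ntf3 signal was well above background in all 6 early but in 13 of 18 late tumors. The software's own log ratio gave a larger difference, 4.20.

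**Figure D2:**
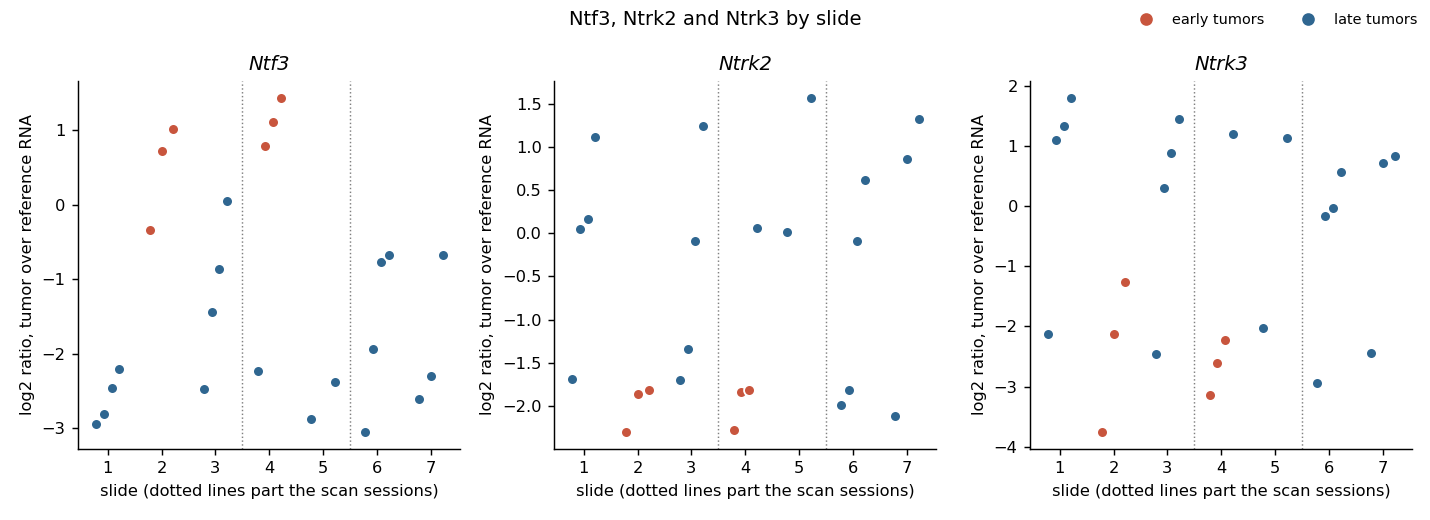
Log2 ratio of tumor to reference RNA (y axis) of Ntf3, Ntrk2 and Ntrk3 on the 7 slides (x axis), 1 point for each tumor, colored by onset, with dotted lines between the 3 scan sessions. Early tumors sit on slides 2 and 4 alone, each session with early tumors also holds late ones, and late Ntrk2 and Ntrk3 values spread from low to high within sessions.

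Ntrk2 was low in every early tumor and variable among late ones. The early HFD tumors 1 to 3 read −1.82, −2.30 and −1.87, and the early HFD-LFD tumors 1 to 3 read −1.84, −1.81 and −2.28. The late HFD tumors ran from −1.81 through a median of −0.72 to 1.25, the 3 late HFD-LFD tumors read 0.02, 1.57 and −2.12, the 4 late LFD-HFD tumors 0.61, 0.87, 0.06 and 1.33, and the 5 late LFD tumors 0.17, 1.11, −1.69, −1.99 and 0.05. All 6 early tumors lay below the late median of 0.03, and 3 late tumors lay within the early range.

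The mean of Ntrk2 was −1.99 ± 0.24 in early (SD, n = 6) and −0.21 ± 1.25 in late tumors (n = 18), a difference of −1.77 with a standard error of 0.49 (limma, adjusted p = 0.0178; exact two-sided permutation p = 0.00269, adjusted over 12 tests 0.0108). By group mean the order was late LFD-HFD 0.72 ± 0.53, late HFD-LFD −0.18 ± 1.85, late LFD −0.47 ± 1.32, late HFD −0.63 ± 1.20, early HFD-LFD −1.98 ± 0.26 and early HFD −2.00 ± 0.27. No neighbors among the late groups differed by more than the larger of their SDs, and the early groups were level. Late HFD exceeded early HFD-LFD by more than the larger SD.

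The call for Ntrk2 depended on how slides and sessions entered. It was −1.71 within session 1 (adjusted p = 0.112), −2.52 within session 2 (adjusted p = 0.0197) and −1.88 with the slide as a random block (adjusted p = 0.0868). Restricted to the HFD and HFD-LFD diets, the difference was −1.50 (adjusted p = 0.082).

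The 3 Ntrk2 probes gave different values, and a test of form against form was not run. With the mean of the 3 probes in place of the brightest, the Ntrk2 difference was −0.92 (limma, adjusted p = 0.0771). The truncated-form probe differed by −0.99 with a standard error of 0.50 (limma over 27211 probes, adjusted p = 0.174), from −1.25 ± 0.51 in early to −0.26 ± 1.25 in late tumors. On 4 arrays that probe lies in rows that a wider rule would set missing, and without them it differed by −1.30 (adjusted p = 0.0536, 20 arrays). The kinase-form probe differed by 0.01 with a standard error of 0.21 (adjusted p = 0.981), but by −0.52 within session 1 (adjusted p = 0.0513) and −0.21 within session 2 (adjusted p = 0.413). Its tumor signal was dim, well above background on 19 of 24 arrays, and its ratio ran from −2.97 to −1.21 over all tumors.

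Ntrk3 was below the reference in all early tumors. The early HFD tumors 1 to 3 read −1.27, −3.76 and −2.12, and the early HFD-LFD tumors 1 to 3 read −3.14, −2.61 and −2.23. The late HFD tumors ran from −2.94 through a median of 0.14 to 1.45, the 3 late HFD-LFD tumors read −2.03, 1.13 and −2.43, the 4 late LFD-HFD tumors 0.56, 0.72, 1.20 and 0.83, and the 5 late LFD tumors 1.10, 1.34, −2.12, −0.16 and 1.81. Every early tumor was below the late median of 0.64, and 5 late tumors lay within the early range.

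The mean of Ntrk3 was −2.52 ± 0.86 in early (SD, n = 6) and −0.05 ± 1.59 in late tumors (n = 18), a difference of −2.47 with a standard error of 0.65 (limma, adjusted p = 0.0127; exact two-sided permutation p = 0.00165, adjusted over 12 tests 0.0099). The order of the group means was late LFD-HFD 0.83 ± 0.27, late LFD 0.39 ± 1.58, late HFD −0.46 ± 1.81, late HFD-LFD −1.11 ± 1.95, early HFD −2.38 ± 1.27 and early HFD-LFD −2.66 ± 0.45. No neighbors in that order differed by more than the larger of their SDs.

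All 4 Ntrk3 probes were lower in early tumors, beside 9.19% of all probes called lower. The other truncated-form probe differed by −2.27 (adjusted p = 0.0226). The kinase-form probes differed by −1.66 (adjusted p = 0.0219) and by −1.15 (adjusted p = 0.0411, 20 arrays), where the second was well above background on 16 arrays. The probes of the kinase form gave smaller differences than those of the truncated form, a contrast whose own test was not run. Their mean tumor signal was also lower, at 9.19 and 7.61 on the log2 scale against 9.85 and 9.23. Whether signal level bears on the contrast was not tested.

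Slides and sessions entered the Ntrk3 call too. The main probe differed by −2.67 within session 1 (adjusted p = 0.102), −2.76 within session 2 (adjusted p = 0.0907) and −2.75 with the slide as a random block (adjusted p = 0.0631). In the HFD and HFD-LFD diets alone it differed by −1.84 (adjusted p = 0.117).

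**Figure D3:**
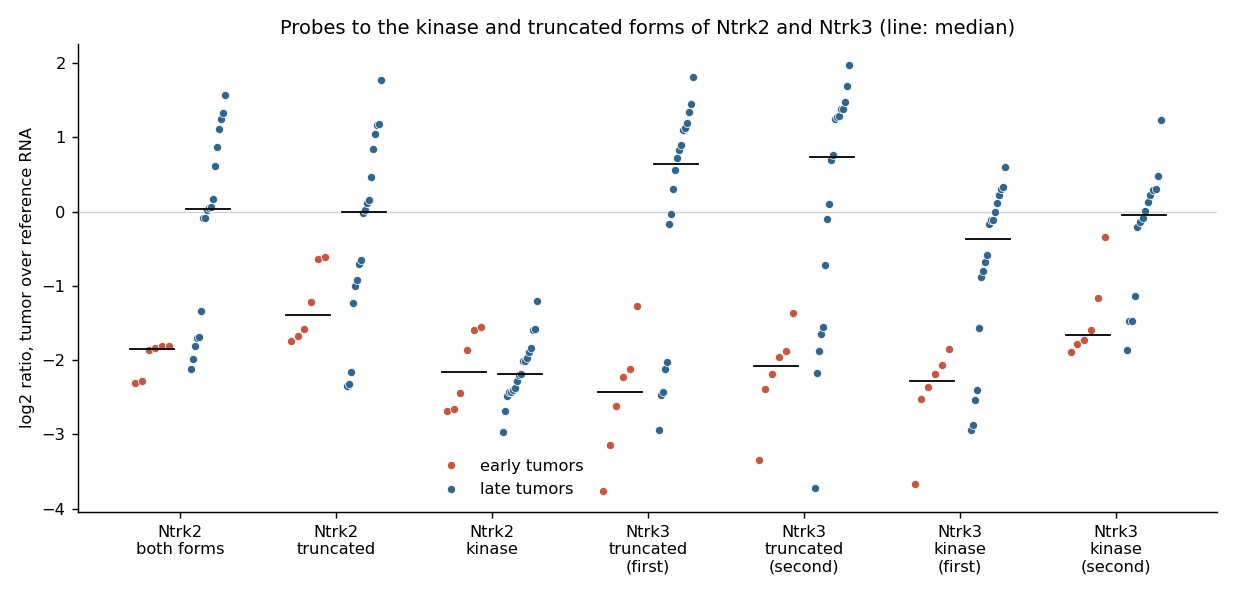
Log2 ratio of tumor to reference RNA (y axis) for the 3 Ntrk2 and 4 Ntrk3 probes, split into early and late tumors (x axis), 1 point a tumor in order of value, with a line at each median. All 4 Ntrk3 probes and the Ntrk2 probe of both forms are lower in early tumors. The Ntrk2 kinase probe, whose tumor signal is dim, has a median of −2.16 in early and −2.19 in late tumors. Within scan sessions 1 and 2 that probe differed by −0.52 and −0.21.

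Bdnf was above the reference in all 24 tumors, from 0.25 to 4.12. The early tumors lay close together, with early HFD tumors at 3.00, 2.55 and 2.77 and early HFD-LFD tumors at 3.18, 2.96 and 2.96. Late tumors ran from 0.25 through a median of 2.65 to 4.12, and 3 of them, late HFD 4, late HFD-LFD 1 and late LFD 3, lay at or below 0.70. The means were 2.90 ± 0.22 and 2.44 ± 1.01, a difference of 0.46 with a standard error of 0.40 (limma, adjusted p = 0.440). Group means ran from 3.03 ± 0.13 in early HFD-LFD to 2.20 ± 0.78 in late HFD tumors, with no neighbors in order further apart than the larger SD.

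Ngfr was below the reference in all but 2 tumors. Early HFD 1 read 2.05, the other early HFD tumors −3.57 and −2.56, and the early HFD-LFD tumors −2.76, −2.91 and −2.17. Late tumors ran from −3.46 through a median of −2.06 to 1.14, the highest being late LFD 4. The early and late means of −1.99 ± 2.03 and −1.85 ± 1.16 differed by −0.13 with a standard error of 0.63 (limma, adjusted p = 0.903). Without early HFD 1 the difference was −0.94 (adjusted p = 0.224).

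Sort1 stayed near the reference. The early HFD tumors read −1.05, −0.03 and −0.20, the early HFD-LFD tumors 0.10, 0.05 and −0.11, and late tumors ran from −0.47 through a median of 0.16 to 1.19. The means of −0.21 ± 0.43 and 0.21 ± 0.46 differed by −0.42 with a standard error of 0.21 (limma, adjusted p = 0.159; exact two-sided permutation p = 0.0621). Without early HFD 1 it was −0.25, and the other Sort1 probes gave −0.17 and −0.14. Median centring of each array in place of loess turned the Ngfr difference to 0.23 and took that of Sort1 to −0.03, neither of them called.

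**Figure D4:**
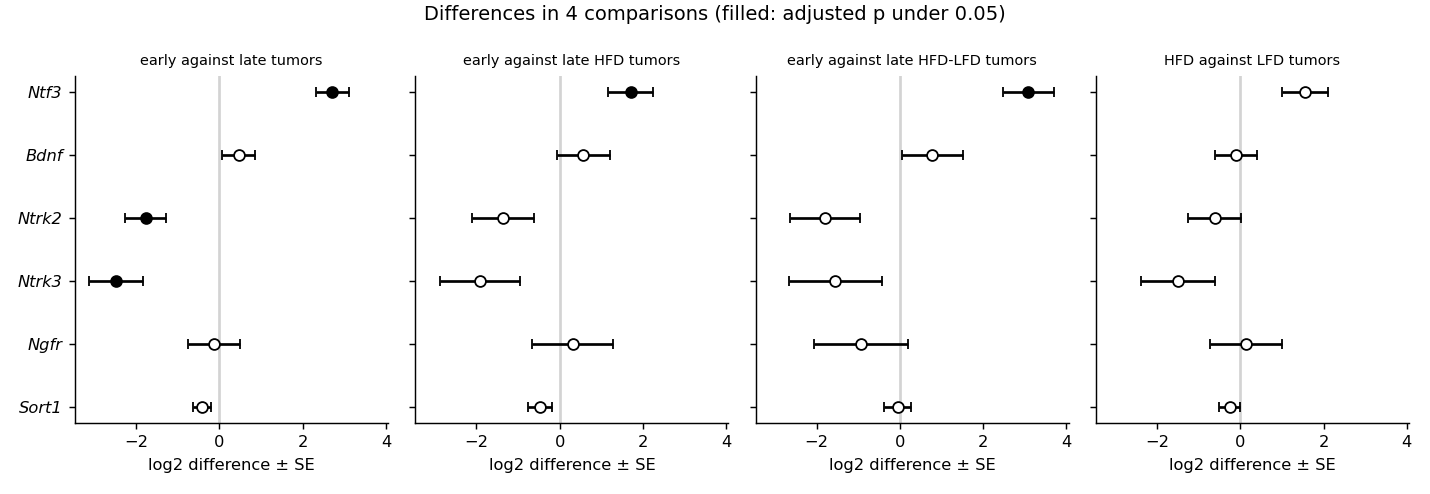
Log2 difference (x axis) of early minus late tumors, over all diets and within HFD and HFD-LFD tumors, and of HFD minus LFD tumors, for each of the 6 genes (y axis), with standard errors; filled points passed the test. Ntf3 lies above 0 in all 4 comparisons, and Ntrk2 and Ntrk3 lie below 0 in all of them.

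Within the continuous HFD diet, early tumors had 1.70 more Ntf3 than late ones on the log2 scale, with a standard error of 0.54 (limma, adjusted p = 0.0443). It was the single gene of the 6 to pass, where 11.6% of all genes did, 5.23% as higher and 6.41% as lower. The exact two-sided permutation p over 84 splits was 0.0357 (adjusted over 12 tests, 0.107), where 0.0119 is the smallest that design allows. Leaving out 1 tumor at a time moved the difference from 1.43 (without early HFD 2) to 2.11 (without early HFD 3), and it passed in 3 of 9 such fits, those without early HFD 3, late HFD 4 or late HFD 6. Ntrk2 differed by −1.36 (limma, adjusted p = 0.227) and Ntrk3 by −1.92 (adjusted p = 0.193). All early HFD tumors sat on slide 2 and all late HFD tumors on slides 3 and 6, so slide and onset cannot be told apart within this diet.

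In HFD-LFD tumors, whose mice had eaten high fat in peripuberty and low fat afterwards, Ntf3 was 8.50-fold higher in early than in late tumors. The difference was 3.09 with a standard error of 0.62 (limma, adjusted p = 0.0213), where the spread was estimated over all 24 tumors. Again Ntf3 alone of the 6 genes passed, where 0.737% of all genes did. It passed in 1 of 6 fits that left out a tumor, the one without late HFD-LFD 3 (3.74, adjusted p = 0.00739), and in the other fits the difference was 2.63 to 3.25 (adjusted p up to 0.136). Ntrk2 differed by −1.80 (limma, adjusted p = 0.323) and Ntrk3 by −1.55 (adjusted p = 0.531). The early HFD-LFD tumors sat on slide 4 and the late ones on slides 5 and 7, so no slide held both.

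Whether onset moved the genes differently in the diets was tested as an interaction. The Ntf3 change was 1.38 smaller in HFD than in HFD-LFD tumors, with a standard error of 0.82 (limma, adjusted p = 0.656). None of the 6 genes passed, nor at an unadjusted p under 0.05, and of all genes 0% passed after adjustment and 8.21% before it.

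Diet was compared over all HFD (n = 9) and LFD (n = 5) tumors. None of the 6 genes passed in limma, and neither did any gene on the array (0%). At an unadjusted p under 0.05 it was 1 of the 6, Ntf3, beside 4.13% of all genes. Ntf3 was 1.55 higher in HFD tumors with a standard error of 0.56 (limma, adjusted p = 0.975). That comparison mixes onset with diet, since 3 of 9 HFD tumors were early and no LFD tumor was. Between late HFD and late LFD tumors the Ntf3 difference was 0.98 with a standard error of 0.46 (limma, adjusted p = 0.624).

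Late tumors of the 4 diets were also set against each other in 1 test. None of the 6 genes passed, at an adjusted or an unadjusted p under 0.05, where 2.06% of all genes did after limma adjustment and 20.7% before it. Ntf3 came closest (unadjusted p = 0.067, limma adjusted p = 0.274). The 4 late LFD-HFD tumors were close together in Ntrk2 and Ntrk3, all above 0, while each other late diet held tumors with both receptors high and tumors with both low.

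Among the 24 tumors, Ntrk2 and Ntrk3 values fell into a lower and an upper range with a gap between them. For Ntrk2 the gap ran from −1.34 to −0.09, with 12 tumors on either side, and for Ntrk3 from −1.27 to −0.16, with 11 tumors below it and 13 above. The 6 early tumors and 4 late ones, late HFD 4, late HFD 6, late HFD-LFD 3 and late LFD 3, were low in both genes. Of these 4, late LFD 3 was also low in Ntf3, at −2.94, and the others read −0.77 to 0.05. Late HFD 3 and late LFD 4 were low in Ntrk2 alone and late HFD-LFD 1 in Ntrk3 alone. The paper found short-latency tumors more likely to be adenosquamous, so onset and histology cannot be told apart in these values.

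**Figure D5:**
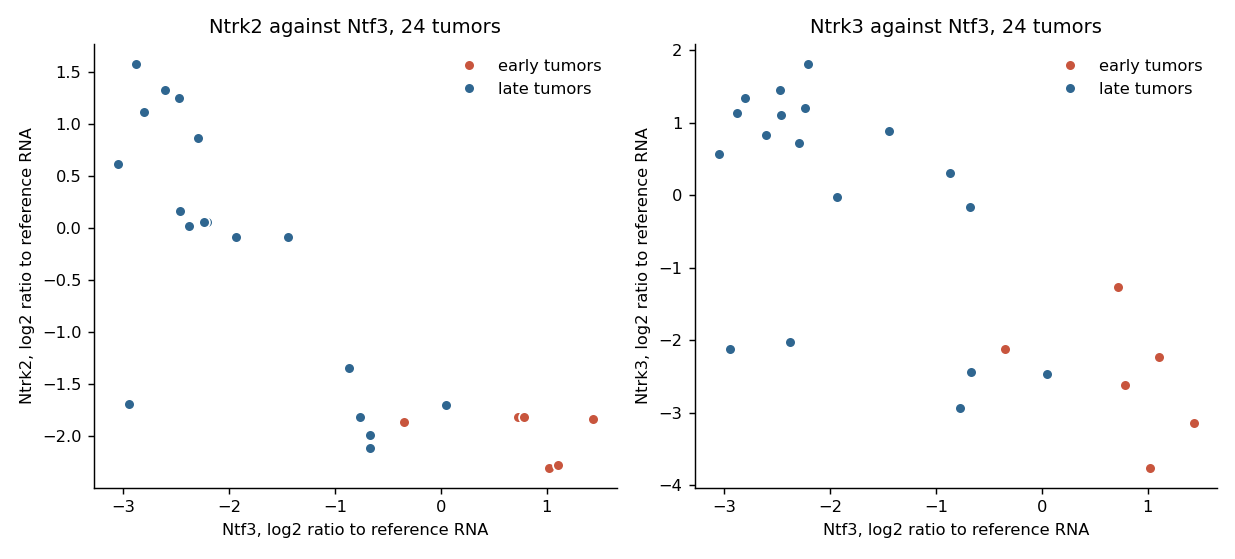
Log2 ratio of Ntf3 (x axis) against Ntrk2 and Ntrk3 (y axes), 1 point for each of the 24 tumors, colored by onset. Early tumors lie at high Ntf3 and low receptor values, and late tumors cover both receptor ranges; late LFD 3, at an Ntf3 value of −2.94, is the one tumor low in Ntf3 and in both receptors.

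Because of the gaps, relations with the 2 receptor genes are given inside each range. Ntf3 and Ntrk2 had r = −0.43 (rho = −0.53) over the lower 12 tumors (permutation p = 0.158 and 0.0798) and r = −0.67 (rho = −0.80) over the upper 12 (permutation p = 0.0132 and 0.00257, adjusted over 20 such relations 0.177 and 0.0514). Without the 2 tumors farthest from the median Ntrk2 value the upper r was −0.61. Ntf3 and Ntrk3 had r = −0.33 (rho = −0.49) over the lower 11 and r = −0.58 (rho = −0.40) over the upper 13 (permutation p = 0.0394 and 0.184, adjusted 0.177 and 0.431). No relation within a range passed the adjustment.

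Of the pairs without a Trk gene, Ntf3 and Sort1 had r = −0.53 and rho = −0.45 over 24 tumors (permutation p = 0.00657 and 0.0294, adjusted over 15 pairs 0.0141 and 0.0682). Within late tumors r was −0.53, and within sessions 1, 2 and 3 it was −0.59, −0.40 and −0.83. Ngfr and Sort1 had r = −0.56 and rho = −0.44 (permutation p = 0.00469 and 0.0318, adjusted 0.0117 and 0.0682), which went to −0.29 without early HFD 1 and late LFD 4, the 2 tumors farthest from the median of Ngfr, and so rests in part on them. Within late tumors r was −0.51, and within sessions 1, 2 and 3 it was −0.64, −0.52 and −0.65, where session 2 holds neither of those tumors.

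The genes most like each of the 6 were found by the Pearson correlation of log2 ratios over the tumors, given here as a description. For Ntf3 they were Ror2, a receptor for Wnt5a (r = 0.92, and 0.86 within late tumors), LOC552901 (0.92, 20 tumors) and Epb41l3 (0.90). For Ntrk2 they were Plekhd1 (0.93), Pdlim3 (0.92) and Gm715 (0.92). The closest to Ntrk3 were the transcript ENSMUST00000064591 (0.97), Myh11, the smooth muscle myosin heavy chain (0.96, 20 tumors), and C030048H21Rik (0.94, 20 tumors). For Ntrk2 and Ntrk3 these r values were taken over the lower and upper ranges together, so the gap can raise them. The genes named for both were all called lower in early tumors, and r inside each range was not computed for them. Sort1 was closest to Phc3 (0.88, 21 tumors), Kif1b (0.84) and AK080218 (0.83). The likeness was weaker for Bdnf, with Rnf2 at 0.76 but a rho of 0.42, then Rab12 (0.75, rho 0.37) and Ctnnd2 (0.73, rho 0.39). Within scan session 3 their r with Bdnf was −0.14, −0.06 and −0.63, so the likeness was not seen there. For Ngfr, Gm15645 was at 0.82 with a rho of 0.57, then Cmah (0.81) and Asphd2 (0.79).

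Other genes of the pathway were read from 5 lists, and between 0 and 18.2% of their members passed, beside 16.4% of all genes. Of 10 further ligands and receptors, 7 were tested and 0 passed in early against late tumors, at a median difference of −0.11 against −0.06 over all genes. Among them were the ligand Ntf5 (−0.05), the sortilin relatives Sorcs1 (−0.02), Sorcs2 (−0.47) and Sorl1 (−0.90, adjusted p = 0.080), the p75 relative Nradd (0.41), and Rtn4r (−0.23), which pairs with p75 as the Nogo receptor. At an unadjusted p under 0.05 it was 2 of 7, Sorcs2 and Sorl1. Sorcs3 and Lingo1 were among those that did not pass the signal filter.

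Of 12 genes that cleave neurotrophin precursors or control those proteases, 16.7% passed. The proprotein convertase Pcsk6 was higher by 1.92 (adjusted p = 0.00282) and its relative Pcsk7 differed by −0.47 (adjusted p = 0.0053), at a list median of 0.02. Among 38 tested adaptors and kinases of Trk signaling 10.5% passed, at a median of 0.05. Gab1, a docking adaptor (0.90), and Pik3cb, a catalytic subunit of phosphoinositide 3-kinase (0.59), rose, and the adaptors Shc2 (−1.03) and Nck2 (−0.89) fell, with adjusted p between 0.0215 and 0.033.

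Of 29 genes of p75 signaling 10.3% passed, at a median of 0.09. The adaptor Bex1 (1.39, adjusted p = 0.0348) and the kinase Ripk2 (0.46, adjusted p = 0.0424) were higher, and Psen2, a subunit of the gamma-secretase that cuts p75, differed by −1.04 (adjusted p = 0.00329). Of 22 genes induced by neurotrophins 18.2% passed, at a median of −0.08. Npy, a neuropeptide (2.77, adjusted p = 0.00181), and the nuclear receptor Nr4a2 (1.27, adjusted p = 0.0204) were higher, and the immediate early gene Arc (−1.88, adjusted p = 0.0056) and Btg2, which slows division (−0.59, adjusted p = 0.0264), were lower.

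Markers of cell types were counted beside the 16.4% of all genes called, 10.2% as lower, and their part in the results for Ntf3, Ntrk2 and Ntrk3 was not tested. Of 12 luminal markers 50% passed, all as lower in early tumors: Prlr (−3.96), Foxa1 (−3.27), Krt19 (−2.79), Gata3 (−2.16), Areg (−1.89) and Esr1 (−1.33), and the list's mean level ran from −0.19 to 2.23 in early and from −1.18 to 3.48 in late tumors. Of 10 basal and myoepithelial markers 20% passed, at a list median of −0.11 with 5 of 10 above 0: Myh11 (−2.89) and Cnn1 (−3.04), both smooth muscle genes, were lower, while the keratins Krt5 (0.44) and Krt14 (1.16) did not pass. All 11 squamous markers had a difference above 0, at a median of 1.40, and 1 of them, Cnfn, passed. Mean squamous levels were 3.22 in late HFD 4, −1.25 in late HFD 6, 1.40 in late HFD-LFD 3 and 0.49 in late LFD 3. These tumors were low in both Ntrk2 and Ntrk3, and the late median was −3.15. Their mean luminal levels were −1.18, −0.08, 1.08 and 1.24, beside a late median of 2.86. Late HFD 3, low in Ntrk2 alone, had a squamous level of −3.13 and a luminal level of 3.07. Of 9 tested Schwann cell markers 1 was higher and 2 were lower, Ncam1 (−1.06) and Mbp (−0.47), at a list median of −0.47 with 3 of 9 above 0. The mean level of that list ran from −1.02 to −0.22 in early and from −1.33 to 0.14 in late tumors. Its member Sox10 read 2.65 to 3.67 in early and −1.52 to 3.19 in late tumors.

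Of 10 neuronal markers Tubb3 was higher (2.63) and Prph and Gap43 lower, and the mean level of the list lay far below the reference, from −3.96 to −3.10 in early and from −4.00 to −2.94 in late tumors. Few stromal markers passed, all as lower: Dcn of 9 fibroblast markers (11.1%, list median −0.04), Vwf and Cldn5 of 8 endothelial (25%), Tagln of 6 pericyte (16.7%) and Pparg of 8 adipocyte markers (12.5%), shares that lie on either side of the 16.4% of all genes. Cd3d was the sole T cell marker of 5 to pass, as lower, whereas none of 8 macrophage, 4 B cell or 9 skeletal muscle markers passed. Of 8 proliferation genes 4 were higher, Top2a (1.17), Ccnb1 (0.95), Bub1 (0.87) and Mki67 (0.85), with adjusted p between 0.00324 and 0.0291 in limma.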

How the data were processed

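The intensity values, as deposited, are the mean brightness of each spot and the median brightness of its local background in both dyes. The log10 ratios of Cy5 to Cy3 in the same files are, as deposited, background-subtracted and dye-normalized by the scanner software. The files' headers give Feature Extraction 11.0.1.1 and the submitters' processing notes 8.5.1.1. The authors' further steps, a filter on intensity, lowess normalization and imputation from nearest probes, are not in these files. Here, control spots and outlier spots were left out, dimmed rows were set missing (a band of 10 rows below −0.5 on the log2 scale, with 10 rows either side), background was corrected by normexp (offset 50) and each array by loess (limma 3.58.1, R 4.3.3). A probe was kept if its signal exceeded local background by more than 10 in each dye on at least 80% of arrays, and the brightest probe stood for its gene. Probes were named by RefSeq accession (27234), symbol (3576) or older symbol (565), and 8054 kept the file's name.

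Groups were compared with lmFit and eBayes over all 20893 genes, with Benjamini-Hochberg adjusted p under 0.05 as the threshold. Early against late tumors, and HFD against LFD tumors, were each fitted on their own tumors. The tests within HFD, within HFD-LFD, of the interaction and across late diets came from a single fit. That fit held the means of the 6 diet and onset groups over all 24 tumors, so those p-values rest on a spread shared by all groups. Exact permutation tests ran on single genes, with labels moved freely across slides, and correlations used 100000 permutations. The scripts were tested on simulated data. The 6 genes, the lists and the tests were chosen with earlier results of these data known. Besides the 6 genes with all their probes, the text names the 3 genes most correlated with each, genes of the lists that passed in early against late tumors, and further ligands and receptors; a few other markers (Krt8, Krt18, Krt5, Krt14 and Sox10) were chosen after their values were seen. Some genes of the lists are not reported here. The number of arrays limits the precision. Alternatives changed the background correction, normalization, filter, probe choice, dimmed rows, slide, session, weights and tumors included.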

Additional observations from a re-analysis of the deposited data

Results flagged for a closer look

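Of 51 groups of 4 to 10 tumors checked, over all 13 probes, 5 held a tumor set apart from the others by most of the group's range, and chance alone gives about 1 in 20. Ngfr in early HFD 1 read 2.05, where the next of the 6 early tumors read −2.17. The same tumor read −1.05 in Sort1, where the next early tumor read −0.20. Bdnf in late HFD 4 read 0.70, the nearest late HFD tumor 2.09. In the same tumor the Sort1 probe at chr3:108158404-108158463 read 0.27, the nearest late HFD tumor −0.42. The Ntrk3 kinase probe at chr7:85337455-85337514 read −3.66 in early HFD 2, where the next early tumor read −2.52.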

How the results depend on the processing

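In early against late tumors, Ntf3 kept its direction in 22 of 22 alternatives and its call in 21, Ntrk2 and Ntrk3 their direction in 23 of 23 and their call in 18 each, and leaving out any 1 tumor kept 3 genes called. The count of called genes among the 6 was 1 with the slide as a random block, within scan session 1 and in HFD and HFD-LFD tumors alone, and 0 with the slide as a fixed block. In HFD tumors the count was 0 with dimmed rows kept as measured, with dimmed rows kept and missing values imputed, with the software's log ratio, without a filter on signal, with the filter that asks for signal well above background, with the slide as a random block and within scan session 1, and 3 with array weights. In HFD-LFD tumors it was 0 with the software's log ratio, the filter well above background and the slide as a random or fixed block, and 2 at an unadjusted p, with array weights and within scan session 2. It was 1 at an unadjusted p in HFD against LFD tumors and 1 with array weights across the late diets. Leaving out 1 tumor at a time gave 0 to 1 in HFD and in HFD-LFD tumors. Ntf3 did not pass the filter well above background and was not tested there, and for the rest the cause was not tested. Rows found dimmed by the background-subtracted signal, an alternative chosen after seeing the data, kept 3 genes called. No called value reversed. Ntrk2 in HFD-LFD tumors, not called, turned to 1.18 with the slide as a fixed block.

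Counts over all genes moved by more than 1.5 times. For early against late tumors (3417) they were 6824 at an unadjusted p, 8584 with array weights, 1381 with the slide as a random and 68 as a fixed block, 1531 within session 1, 1546 in HFD and HFD-LFD tumors alone and 5155 from 6 group means. For HFD (2431) they were 1534 and 1518 with dimmed rows kept, without and with imputation, 1082 from the tumor channel alone, 5987 at an unadjusted p, 8635 with weights and 91 with the random block. For HFD-LFD (154) they were 55 under both rules that kept dimmed rows, 50 from the tumor channel, 3134 at an unadjusted p, 2487 with weights, 7 and 60 with the random and fixed block, 496 with the session as a block, 1661 within session 2 and 445 without the slides that held dimmed rows. For the interaction (0) they were 2 with imputation, 4 with the software's log ratio, 1715 at an unadjusted p and 640 with weights. For HFD against LFD (0) they were 863 at an unadjusted p, 350 with weights and 1 with the fixed block. Across late diets (431) they were 102 and 101 with dimmed rows kept, 119 from the tumor channel, 4317 at an unadjusted p, 4818 with weights, 4 and 1499 with the random and fixed block, 942 with the session block and 237 without those slides. Without 1 tumor they ran from 1848 to 4151, 882 to 3319, 20 to 229, 0 to 17, 0 to 1 and 135 to 1150, in the same order.

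No paired analysis was possible because the replicate numbers only name tumors in accession order. Dim signal limits the Ntf3 fold, since 5 of 18 late tumors were not well above background, and the Ntrk2 kinase probe likewise on 5 of 24 arrays. The slide as a fixed block could not be fitted for HFD tumors or the interaction.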
